A study of Mus musculus with 50 samples.

Results

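The genes described here are 7 chemokine ligands and 2 receptors of the CC family that draw monocytes and their relatives into tissue, chosen by symbol alone. They are Ccl2, Ccl7, Ccl12, Ccl8, Ccl3, Ccl4 and Ccl6 with the receptors Ccr2 and Ccr1, 9 of the 56691 genes in the table. All 9 symbols matched 1 gene each. Poly(A) RNA was sequenced from the colon of 50 BALBC mice (the strain as labelled, BALB/c), narrowed by the series text to its distal part, with 1 library per mouse. The 5 groups of 10 mice were sham mice, mice given TNBS and vehicle, and mice given TNBS and A1007 at 10, 30 or 90 mpk, the unit as labelled. TNBS is trinitrobenzene sulfonic acid, a hapten that provokes colitis in mice, and all groups but sham received it. A1007 activates AhR, the aryl hydrocarbon receptor, which enters the nucleus and turns on transcription once it has bound a small molecule. No group described here had A1007 without TNBS, so the doses were measured only on top of TNBS. Age, sex and the day of sampling are not in the labels, which place all mice in 1 batch.

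Chemokines are small secreted proteins that bind to the walls of vessels and to matrix and guide leukocytes along their gradient. In mice CCL2, CCL7 and CCL12 act through CCR2, the receptor with which classical monocytes leave the bone marrow and enter inflamed tissue, and in the inflamed gut these monocytes replace or join the resident macrophages. CCL3 and CCL6 act through CCR1, and mouse CCL8 is known as a ligand of CCR8. The ligand genes lie in clusters that arose by duplication. On GRCm39, in the deposited annotation, Ccl2 (81926397 to 81928279), Ccl7 (81936538 to 81938351), Ccl12 (81992671 to 81994226) and Ccl8 (82006011 to 82007625) followed each other on the plus strand within 81.2 kb of chromosome 11. Ccl6 (83478708 to 83483913), Ccl3 (83538670 to 83540181) and Ccl4 (83553410 to 83555509) lay within 76.8 kb of the same chromosome, with Ccl6 and Ccl3 on the minus strand and Ccl4 on the plus strand. Ccr1 (123762161 to 123768729) and Ccr2 (123901987 to 123913594) lay within 151.4 kb of chromosome 9, Ccr1 on the minus and Ccr2 on the plus strand. Neighbouring ligands are close paralogs, and their values are uncertain to the extent that reads of one gene were counted for another.

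RefSeq's promoter table for GRCm38.p6 held 6 of the 9 genes (not Ccl2, Ccl4 or Ccl7). The 250 bases before the start are shown for 4 genes that behaved differently: Ccl3 fell with A1007, Ccl8 was high in every TNBS group, Ccl6 was abundant in sham mice, and Ccr1 was the only one of the 6 with the core of the AhR response element. Capitals mark matches on either strand to TATAA, to GCGTG (the core of the AhR response element), to TGANTCA (AP-1), to TTNNGNAA (C/EBP) and to the NF-kappaB consensus. No marked matches overlap in these 4 sequences.
Ccl3, chr11:83649379-83649628, minus strand: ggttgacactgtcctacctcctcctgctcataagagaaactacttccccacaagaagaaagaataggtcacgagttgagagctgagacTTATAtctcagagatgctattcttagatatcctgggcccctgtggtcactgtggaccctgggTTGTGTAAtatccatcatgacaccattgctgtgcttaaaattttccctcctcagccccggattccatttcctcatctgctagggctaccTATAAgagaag
Ccl8, chr11:82114935-82115184, plus strand: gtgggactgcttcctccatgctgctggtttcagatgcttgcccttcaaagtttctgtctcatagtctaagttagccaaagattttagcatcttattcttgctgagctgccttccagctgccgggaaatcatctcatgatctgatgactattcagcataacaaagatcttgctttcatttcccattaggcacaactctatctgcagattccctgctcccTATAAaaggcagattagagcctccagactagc
Ccl6, chr11:83593088-83593337, minus strand: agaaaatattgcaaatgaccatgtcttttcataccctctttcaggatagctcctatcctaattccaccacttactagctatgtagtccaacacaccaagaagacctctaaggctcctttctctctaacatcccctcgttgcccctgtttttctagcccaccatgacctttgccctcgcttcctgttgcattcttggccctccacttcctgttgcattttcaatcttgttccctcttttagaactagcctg
Ccr1, chr9:123968693-123968942, minus strand: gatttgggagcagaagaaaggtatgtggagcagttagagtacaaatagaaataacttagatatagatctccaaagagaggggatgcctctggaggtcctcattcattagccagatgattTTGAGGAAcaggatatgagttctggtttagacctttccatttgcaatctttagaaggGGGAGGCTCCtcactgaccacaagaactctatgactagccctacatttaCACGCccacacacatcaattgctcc

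TATAA was found in Ccl12, Ccl8, Ccl3 and Ccr2, and in 22.8% of 32851 mouse promoters of the same length. In Ccl8 it began 32 bases before the start. GCGTG was found in Ccr1 alone, 25 bases before the start, on the strand opposite to the printed one (in capitals as CACGC), against 28.2% of all promoters. The NF-kappaB consensus was also found in Ccr1 alone, against 7.25% of all promoters, and the C/EBP letters in Ccl3, Ccr2 and Ccr1, against 36.8%. TGANTCA was in none of the 6 windows and in 6.75% of all promoters. These matches describe letters in a short window and no binding was measured.

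Libraries held 14373337 to 20446967 counts, and some stood apart. Vehicle replicate 6 held pancreatic acinar transcripts (35400 CPM over 5 markers, where CPM are counts scaled to library size), and 10 mpk replicates 3 and 8 had little Hoxd13, a gene of the hindgut (1.37 and 0.63 FPKM). Replicates 6 at 10 mpk and 1 at 30 mpk had Xist under 1 FPKM. Leaving out vehicle replicate 6 changed no member call but that of Ccl4 at 10 mpk against vehicle, which then passed. Fits without the other mice named so far are given for some results only. Cpa1, 1 of the 5 acinar markers, was also at 69.09, 66.07 and 20.42 FPKM in vehicle replicates 2, 5 and 9. These were the vehicle mice highest in Ccl2, Ccl7 and Ccr2, and they were left out only 1 at a time. Vehicle replicate 9 had the lowest Xist and Hoxd13 of its group (7.86 and 7.52 FPKM). Among dosed mice Cpa1 was highest in 30 mpk replicate 2, at 130.19 FPKM.

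Levels are given in FPKM, the deposited counts scaled to exon length and library size, so that genes of different length can be compared. In sham mice Ccl6 was by far the most abundant of the 7 ligands, with a median share of 97.1% of their summed FPKM and a range of 93.9 to 97.9% over mice. In TNBS vehicle mice this share had a median of 81.3% and reached down to 44.1%. It was 85.5% at 10 mpk, 89% at 30 mpk and 92.8% at 90 mpk in the median mouse. Among the 3 ligands of CCR2, Ccl12 made up a median of 50.7% of the summed FPKM in sham mice, 15.7% in vehicle mice and 47.1% at 90 mpk, so among these 3 the median vehicle mouse held mostly Ccl2 and Ccl7.

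**Figure D1:**
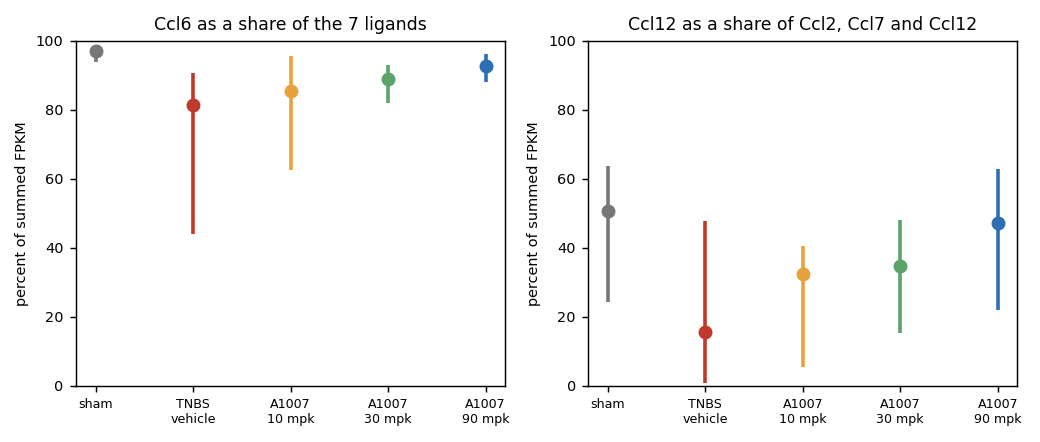
Share of Ccl6 in the summed FPKM of the 7 ligands (left) and of Ccl12 in that of Ccl2, Ccl7 and Ccl12 (right), in percent, for each group of 10 mice. Dots are medians and bars run from the lowest to the highest mouse, with the lowest medians of both shares in vehicle mice (81.3% and 15.7%).

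The first comparison asked which of these genes TNBS changed. In edgeR's quasi-likelihood test, 8 of 9 members were higher in vehicle than in sham mice at an adjusted p under 0.05 (all but Ccl6) and none was lower, where 31.7% of all tested genes were called in either direction, 18.2% higher and 13.5% lower. The median log2 fold change of the 9 was 2.79, against 0.02 over all genes tested. On log2(FPKM + 0.5) in limma the same 8 were called, with smaller rises for the widely spread genes (3.02 for Ccl2, 2.90 for Ccl7, 2.90 for Ccl3 and 2.16 for Ccl4). Ccl3 and Ccl4 were near 0 in sham mice and passed the filter on low counts through mice of other groups, so their rise is in part set by that filter. Ccl8, Ccr2 and Ccr1 did not overlap between the groups, every vehicle mouse lying above every sham mouse. The share of all genes without overlap was not counted, here or for the doses against sham, so this describes these genes only. In bulk tissue, fewer cells of a type and less RNA per cell cannot be told apart.

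The second comparison asked what each dose of A1007 did in TNBS mice. Against vehicle, 6 members were lower at 30 mpk (Ccl2, Ccl7, Ccl3, Ccl4, Ccr2 and Ccr1) and 1 was higher (Ccl6), where 31.4% of all genes were called, 17.9% lower and 13.5% higher. At 90 mpk the counts were again 6 lower and 1 higher, of the same genes, where 18.2% of all genes were called, 11.1% lower and 7.12% higher. At 10 mpk 5 members were lower (Ccl2, Ccl7, Ccl3, Ccr2 and Ccr1) and none higher, where 5.75% of all genes were called, 2.91% lower and 2.83% higher. The medians over the 9 were -1.13, -1.84 and -1.83 at 10, 30 and 90 mpk, against 0, -0.02 and -0.01 over all genes. Ccl12 and Ccl8 were called at no dose. At 30 and 90 mpk Ccl3 had at most 24 counts in a mouse and Ccl4 at most 12. Both passed the filter on low counts in part through vehicle and 10 mpk mice, so their falls are in part set by that filter. The 3 dose groups were compared with the same vehicle mice, so an extreme vehicle mouse enters all 3 comparisons.

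The calls at 10 mpk rested on the spread shared by the 4 TNBS groups. None of the 9 was called when only vehicle and 10 mpk mice were fitted (4 of all genes called), with limma's voom and weights by group (23 genes) or with a rank-sum test (0 genes). Ccl2, Ccl7 and Ccl3 were not called with quantile normalization or on log2 FPKM either, where Ccr2 and Ccr1 were. Adjusted p-values over the settings tried ran from 6.68e-05 to 0.435 for Ccl2 and from 0.00147 to 0.15 for Ccr2. Without 10 mpk replicates 3 and 8, 6 members were lower, with Ccl3 at -4.04 and Ccl4 at -3.26 (edgeR adjusted p = 0.00839 and 0.0154). Without the 2 mice low in Xist 4 were lower, Ccl3 being lost (adjusted p = 0.0929). Both sets were chosen after their values were seen, and the counts at 30 and 90 mpk were 7 in each of these fits. No share of all genes is given here for these fits. With each mouse left out in turn, 494 to 2436 of all genes were called at 10 mpk against vehicle, and 1030 with all mice kept. Whether the counts of members followed the number of all genes called was not tested.

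**Figure D2:**
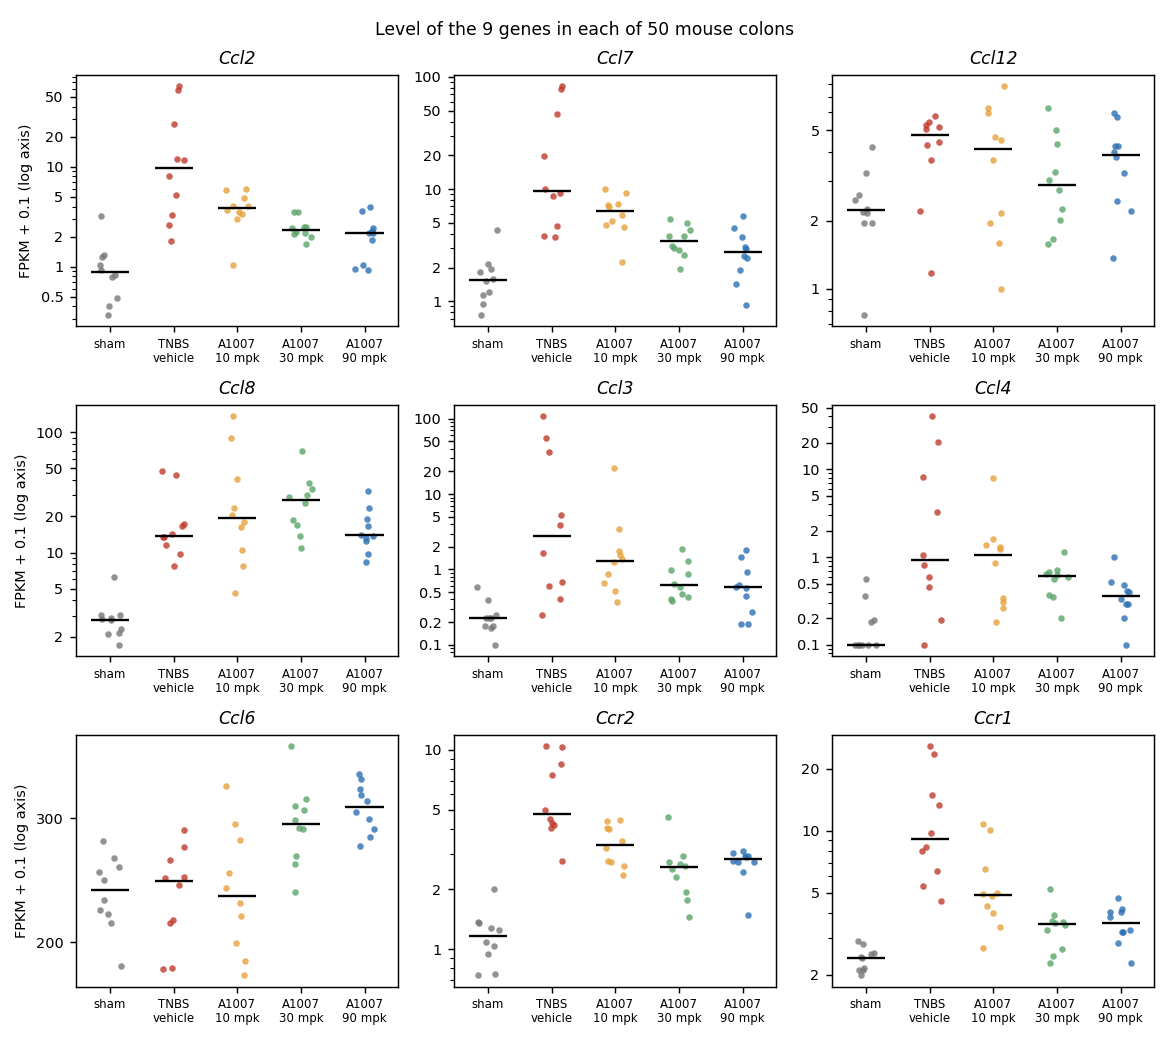
Level of each gene in every mouse, as FPKM + 0.1 on a log axis, by group. Each point is 1 mouse and each bar the median of 10 mice, and the spread of Ccl2, Ccl7, Ccl3 and Ccl4 is widest in vehicle mice whereas Ccl8 is above nearly all sham mice in every TNBS group.

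Ccl2, the main ligand of CCR2, was at 0.23 FPKM in the lowest sham mouse, 0.775 in the median and 3.14 in the highest. In vehicle mice the lowest, median and highest values were 1.7, 9.725 and 64.34 FPKM, and 8 of 10 lay above every sham mouse. Replicates 5 and 9 (64.34 and 58.06 FPKM) stood far above replicate 1 (1.7), so mice given the same TNBS and vehicle differed more among themselves than most differed from sham. The fitted rise was 4.37 on the log2 scale (SE 0.74, edgeR adjusted p = 0.00021).

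At 10 mpk Ccl2 ran from 0.95 to 5.95 FPKM with a median of 3.765, at 30 mpk from 1.6 to 3.45 with a median of 2.235, and at 90 mpk from 0.82 to 3.81 with a median of 2.085. The high tail of the vehicle group was absent, with 6, 7 and 7 of 10 vehicle mice above every mouse at 10, 30 and 90 mpk, while the low vehicle mice lay among the dosed mice. The log2 fold changes against vehicle were -2.38 at 10 mpk (SE 0.474, edgeR adjusted p = 0.00464), -3.04 at 30 mpk (SE 0.492, adjusted p = 2.98e-05) and -3.31 at 90 mpk (SE 0.5, adjusted p = 2.96e-05). With quantile normalization they were -1.47, -1.98 and -2.42. Ccl2 was still above sham, by 1.98 at 10 mpk (adjusted p = 0.000421), 1.31 at 30 mpk (adjusted p = 0.00155) and 1.05 at 90 mpk (adjusted p = 0.0346). At 90 mpk that call was lost when any 1 of 9 mice was left out (90 mpk replicates 6, 9 and 10, sham replicates 3, 4, 6, 7, 9 and 10), with log2 values of 0.89 to 1.03 and adjusted p of 0.0526 to 0.0717, and also with no filter on low counts (0.0816) or all 50 mice in 1 fit (0.124).

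Ccl7, a second ligand of CCR2, had much the same pattern. Its sham mice ran from 0.66 to 4.24 FPKM with a median of 1.445, and its vehicle mice from 3.68 to 82.89 with a median of 9.5. Replicates 9, 5 and 2 (82.89, 77.81 and 46.53 FPKM) held the high end. The rise with TNBS was 4.07 on the log2 scale (SE 0.676, edgeR adjusted p = 0.000173).

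The dosed mice had medians of 6.29 FPKM at 10 mpk (range 2.15 to 9.86), 3.38 at 30 mpk (1.85 to 5.3) and 2.635 at 90 mpk (0.83 to 5.67). At 90 mpk 8 of 10 mice lay below every vehicle mouse. Ccl7 fell by 2.14 at 10 mpk (adjusted p = 0.00686), by 2.94 at 30 mpk (adjusted p = 3.27e-05) and by 3.30 at 90 mpk (adjusted p = 2.39e-05) on the log2 scale in edgeR, or -1.26, -1.96 and -2.46 with quantile normalization. At 90 mpk the difference from sham was 0.76 (adjusted p = 0.0593, 95% interval 0.09 to 1.42) and did not pass. Without 1 of 3 mice (90 mpk replicates 5 and 8, sham replicate 5) it passed, with log2 values of 0.84 to 1.04 and adjusted p of 0.00514 to 0.0357, as it did with DESeq2 (adjusted p = 0.041) and group weights (0.0497).

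Ccl12, the remaining CCR2 ligand, was higher in vehicle than in sham mice and was called against vehicle at no dose. Its sham mice ran from 0.67 to 4.11 FPKM (median 2.12) and its vehicle mice from 1.08 to 5.69 (median 4.655). The rise with TNBS was 0.85 (SE 0.253, adjusted p = 0.0144), and 7 of 10 vehicle mice lay above every sham mouse. Vehicle replicate 9, the mouse with the highest Ccl7, had the lowest Ccl12 of its group at 1.08 FPKM.

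The medians of Ccl12 were 4.02 FPKM at 10 mpk, 2.78 at 30 mpk and 3.815 at 90 mpk, and the groups overlapped widely. Against vehicle its log2 fold changes were -0.09 (95% interval -0.716 to 0.531), -0.36 (-0.993 to 0.267) and -0.20 (-0.826 to 0.423), so a change of either sign within these bounds was not resolved. Against sham it was higher at 90 mpk by 0.64 (adjusted p = 0.0413), a call that was lost when any 1 of 13 mice was left out (0.53 to 0.64, adjusted p 0.0505 to 0.0882) and with quantile normalization, log2 FPKM, group weights, the rank-sum test and all 50 mice in 1 fit (adjusted p 0.0507 to 0.118). These were 90 mpk replicates 1, 4, 6, 8, 9 and 10 and sham replicates 2, 3, 4, 5, 6, 9 and 10. It was not called at 10 mpk (0.75, adjusted p = 0.079) or at 30 mpk (0.47, adjusted p = 0.143). Without 1 of 3 mice (10 mpk replicates 3 and 5, sham replicate 8) it was called at 10 mpk, at 0.84 to 0.89 (adjusted p 0.029 to 0.0499), and with all 50 mice in 1 fit (0.0471). It was called there also without both 10 mpk replicates 3 and 8 (edgeR adjusted p = 0.0236).

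Ccl8, the ligand of CCR8, was the member that stayed high. Sham mice ran from 1.61 to 6.2 FPKM (median 2.665) and vehicle mice from 7.7 to 47.88 (median 13.7), with no overlap. TNBS raised it by 2.79 (SE 0.339, adjusted p = 5.08e-06). The high vehicle mice were replicates 7 and 2 (47.88 and 43.86 FPKM), whereas replicates 5 and 9, highest in Ccl2, had 17.09 and 14.12.

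In dosed mice the lowest, median and highest Ccl8 were 4.53, 19.09 and 135.55 FPKM at 10 mpk, 10.77, 27.33 and 69.3 at 30 mpk, and 8.31, 13.87 and 32.05 at 90 mpk. No mouse at 30 or 90 mpk overlapped sham, and 9 of 10 at 10 mpk lay above every sham mouse. Against sham the log2 fold changes were 3.70 at 10 mpk (adjusted p = 8.19e-05), 3.36 at 30 mpk (adjusted p = 8.68e-08) and 2.50 at 90 mpk (adjusted p = 4.58e-07). Against vehicle they were 0.91 (95% interval -0.001 to 1.815), 0.58 (-0.323 to 1.492) and -0.29 (-1.203 to 0.626), none of them called. The highest mice at 10 mpk were replicates 6 and 1, at 135.55 and 89.95 FPKM. Replicate 6 was also 1 of the 2 mice with Xist under 1 FPKM, and without those mice the value at 10 mpk was 0.40.

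Ccl3, a ligand of CCR1 made by activated macrophages and neutrophils, was low in sham mice, which held at most 0.49 FPKM (median 0.13, 1 mouse at 0 counts). Vehicle mice ran from 0.15 to 107.76 FPKM with a median of 2.68, and replicates 5, 9 and 8 held 107.76, 55.83 and 36.04. The remaining 7 vehicle mice were at 5.22 FPKM or below, so the group mean of 21.18 ± 35.9 (SD, n = 10) stood on 3 mice.

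The fitted rise of Ccl3 with TNBS was 7.07 (SE 1.321, adjusted p = 0.000502) and 6.27 without vehicle replicate 5. At 30 mpk the range was 0.28 to 1.78 FPKM (median 0.52) and at 90 mpk 0.09 to 1.71 (median 0.48), and 5 vehicle mice lay above every mouse of either dose. The log2 fold changes against vehicle were -4.89 at 30 mpk (adjusted p = 0.000327) and -5.12 at 90 mpk (adjusted p = 0.000366), or -4.10 and -4.33 without vehicle replicate 5 and -2.10 and -2.25 on log2(FPKM + 0.5). With the rank-sum test neither fall was called (adjusted p = 0.255 and 0.13), nor was that at 30 mpk with group weights (adjusted p = 0.0511).

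At 10 mpk Ccl3 ran from 0.27 to 22.37 FPKM with a median of 1.215, and replicate 8 alone held the high value, the next mouse being at 3.3. Its log2 fold change against vehicle was -2.70 (adjusted p = 0.0488), -4.16 without 10 mpk replicate 8 and -1.9 without vehicle replicate 5. The call at 10 mpk was lost when any 1 of 13 mice was left out, at log2 values of -2.82 to -1.9 and adjusted p of 0.0524 to 0.176. These were 10 mpk replicates 1, 2, 3, 4, 6, 7, 9 and 10 and vehicle replicates 2, 5, 7, 8 and 9. Against sham Ccl3 was higher by 4.37 at 10 mpk (2.91 without 10 mpk replicate 8), 2.16 at 30 mpk and 1.94 at 90 mpk, with adjusted p of 0.000772, 0.000228 and 0.00397. With all 50 mice in 1 fit the calls at 30 and 90 mpk were lost (adjusted p = 0.131 and 0.238).

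Ccl4, a ligand made by activated macrophages and encoded beside Ccl3, followed it at a lower level. No read was counted in 6 of 10 sham mice and the highest sham mouse had 0.47 FPKM. Vehicle replicates 5, 9 and 8 were again the highest, at 40.15, 20.59 and 8.11 FPKM, above a group median of 0.835. The rise with TNBS was 6.33 (SE 1.286, adjusted p = 0.00103), 5.44 without vehicle replicate 5 and 7.07 without sham replicate 3. With most sham mice at 0, this fitted value depends on the model and is no exact fold.

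The medians of Ccl4 in dosed mice were 0.95 FPKM at 10 mpk (highest 7.77, again replicate 8), 0.505 at 30 mpk (highest 1.03) and 0.265 at 90 mpk (highest 0.89). Against vehicle it fell by 3.90 at 30 mpk (adjusted p = 0.000797) and by 4.57 at 90 mpk (adjusted p = 0.000412) on the log2 scale. Without vehicle replicate 5 the values were -3.03 and -3.69, and on log2(FPKM + 0.5) -1.42 and -1.73. With group weights (adjusted p = 0.168 and 0.0576) and the rank-sum test (0.418 and 0.148) neither was called, and at 30 mpk it was also lost with quantile normalization (0.081) and on log2(FPKM + 0.1) (0.111). The value at 10 mpk was -2.40 and narrowly missed the threshold (adjusted p = 0.0507), -3.38 without 10 mpk replicate 8 and -1.52 without vehicle replicate 5. It passed with DESeq2 (adjusted p = 0.0347) and when any 1 of 8 mice was left out (10 mpk replicates 5 and 8, vehicle replicates 1, 2, 3, 4, 6 and 10), at -3.38 to -2.26 with adjusted p of 0.0106 to 0.0481.

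Against sham Ccl4 was higher by 3.92 at 10 mpk (adjusted p = 0.0018), 2.41 at 30 mpk (adjusted p = 0.000955) and 1.75 at 90 mpk (adjusted p = 0.0331). Without sham replicate 3, the highest sham mouse, the values were 4.66, 3.15 and 2.49, and without 10 mpk replicate 8 the first was 2.94. The call at 90 mpk was lost when any 1 of 7 mice was left out (90 mpk replicate 4, sham replicates 1, 4, 6, 7, 8 and 9), at 1.38 to 1.62 with adjusted p of 0.0522 to 0.0993, and with no filter on low counts (0.0589). With all 50 mice in 1 fit the calls at 30 and 90 mpk were lost (adjusted p = 0.0852 and 0.305).

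Ccl6, a mouse ligand of CCR1 present in healthy gut, was not called with TNBS and rose against vehicle at 30 and 90 mpk, where Ccl2, Ccl7, Ccl3 and Ccl4 fell. Its lowest, median and highest levels were 184.87, 237.2 and 278.73 FPKM in sham mice and 183.11, 244.1 and 288.97 in vehicle mice. The difference was 0.01 on the log2 scale with a 95% interval of -0.195 to 0.212 (adjusted p = 0.956), a narrow interval around no change. At 10 mpk the range was 179.59 to 333.67 FPKM (median 232.9) and the difference from vehicle 0.03 (-0.184 to 0.235).

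At 30 mpk Ccl6 ran from 235.49 to 379.33 FPKM (median 294.1) and at 90 mpk from 273.64 to 346.59 (median 311.6). Here 7 and 8 of 10 mice lay above every vehicle mouse. The rises against vehicle were 0.35 at 30 mpk (SE 0.104, adjusted p = 0.00978) and 0.37 at 90 mpk (SE 0.104, adjusted p = 0.0112), a 1.27-fold and a 1.29-fold level. Against sham the rises were 0.34 (adjusted p = 0.000645) and 0.37 (adjusted p = 6.11e-05). The rises against vehicle kept their calls under every setting tried.

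Ccr2, the receptor of Ccl2, Ccl7 and Ccl12, was between 0.64 and 1.89 FPKM in sham mice (median 1.065) and between 2.67 and 10.3 in vehicle mice (median 4.64), with no overlap. It rose by 2.49 (SE 0.261, adjusted p = 1.06e-06). In the same vehicle mice that were high in Ccl2 (replicates 5, 2 and 9) it was at 10.3, 10.17 and 8.36 FPKM.

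With A1007 the medians of Ccr2 were 3.24 FPKM at 10 mpk, 2.47 at 30 mpk and 2.735 at 90 mpk. Its log2 fold changes against vehicle were -0.88 (adjusted p = 0.0104), -1.28 (adjusted p = 2.5e-05) and -1.25 (adjusted p = 6.13e-05). At 90 mpk 9 of 10 vehicle mice lay above every dosed mouse. Against sham it was higher by 1.61, 1.2 and 1.24 (adjusted p = 1.04e-06, 4.57e-05 and 9.96e-06), calls that held under every setting tried.

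Ccr1, a receptor of monocytes and neutrophils for Ccl3 and Ccl6, was at 1.89 to 2.83 FPKM in sham mice (median 2.32) and 4.47 to 25.61 in vehicle mice (median 8.975), again with no overlap. It rose by 2.40 (SE 0.298, adjusted p = 7.73e-06). Replicates 5 and 9 were once more the highest, at 25.61 and 23.53 FPKM.

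Its medians at 10, 30 and 90 mpk were 4.79, 3.425 and 3.465 FPKM. Ccr1 fell by 1.13 at 10 mpk (adjusted p = 0.0118), by 1.84 at 30 mpk (adjusted p = 9.83e-06) and by 1.83 at 90 mpk (adjusted p = 2.08e-05) in log2 units against vehicle. At 30 and at 90 mpk 9 of 10 dosed mice lay below every vehicle mouse. Against sham it was higher by 1.26, 0.54 and 0.56 (adjusted p = 8.86e-05, 0.000607 and 0.00027). With all 50 mice in 1 fit the calls at 30 and 90 mpk were lost (adjusted p = 0.0574 and 0.0847).

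**Figure D3:**
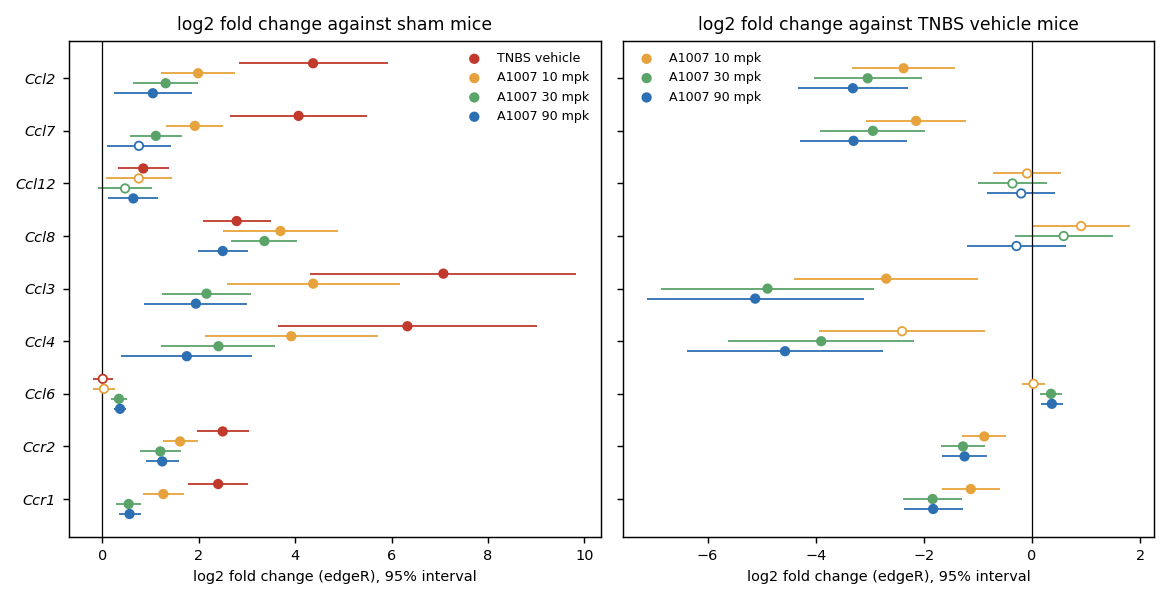
log2 fold change of each gene against sham mice (left) and against TNBS vehicle mice (right), with 95% intervals from edgeR. Filled points passed an adjusted p of 0.05 and open points did not, and Ccl12 and Ccl8 are open at all 3 doses against vehicle while Ccl6 is filled to the right of 0 at 30 and 90 mpk (0.35 and 0.37).

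Against the shared sham mice, 7 of 9 members were higher at 10 mpk (36% of all genes called in either direction, 21.3% higher and 14.7% lower), 8 at 30 mpk (59%, 30.3% higher and 28.7% lower) and 8 at 90 mpk (45.2%, 23.4% higher and 21.9% lower), and none was lower. At 30 mpk 59% of all genes differed from sham, so a count of 8 says less there than in the vehicle mice. With all 50 mice in 1 fit, for which no share of all genes is given here, the count was 5 at 30 mpk and 3 at 90 mpk. At 90 mpk it was 5 without sham replicate 4, 6 or 9, where fits with 1 mouse left out called 7511 to 8376 of all 17928 genes. Ccl8, Ccl6 and Ccr2 held their calls at 90 mpk in all of these.

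Between doses edgeR called none of the 9 genes. At an unadjusted p under 0.05 there were 3 for 30 against 10 mpk, 6 for 90 against 10 mpk and 0 for 90 against 30 mpk. DESeq2 called 1, 0 and 0. Of all genes 2.01%, 0.1% and 0.368% were called in these comparisons. The differences between 90 and 30 mpk had 95% intervals of -1.269 to 0.721 for Ccl2, -2.416 to 1.959 for Ccl3 and -0.531 to 0.553 for Ccr1 on the log2 scale. The estimates for Ccl3 against 10 mpk were -2.20 at 30 mpk and -2.42 at 90 mpk (adjusted p = 0.205 and 0.324), or -0.73 and -0.96 without 10 mpk replicate 8. Those for Ccl4 were -1.5 and -2.16 (adjusted p = 0.354 and 0.375), or -0.52 and -1.19 without that mouse. For Ccl6 the difference between 30 and 10 mpk was 0.32 (adjusted p = 0.0805), called by DESeq2 and, without 10 mpk replicate 9, by edgeR (0.38, adjusted p = 0.0159).

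The mice of the vehicle group differed widely, so the relations between the 9 genes were examined within it, over 36 pairs of genes and 10 mice. Pearson's r of log2 CPM passed an adjusted p of 0.05 in 15 pairs (permutation test, two-sided, adjusted over the 36 pairs) and Spearman's rho in 13. The 15 were all pairs among Ccl2, Ccl7, Ccl3, Ccl4, Ccr2 and Ccr1, the 6 genes that fell at 30 and 90 mpk, with r of 0.75 to 0.98. These vehicle mice also entered the comparisons in which the 6 genes fell, so the match is a description. None of the other 21 pairs passed, with r of -0.53 to 0.52.

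Ccl2 and Ccl7 had r = 0.98 and rho = 0.98 (permutation p = 1e-05, the smallest that 100000 resamples can give, and 2e-05), and r = 0.95 without the 2 mice farthest from the median of Ccl2. Ccl2 and Ccr1 had r = 0.97 and rho = 0.95 (permutation p = 1e-05 and 8e-05), and Ccl3 and Ccr1 r = 0.94 and rho = 0.95 (permutation p = 6e-05 and 0.00015). For each pair the 2 mice farthest from the median of its first gene were left out, so the 8 mice kept could differ between pairs. Without the 2 farthest mice 8 of the 36 pairs passed, all among the same 6 genes, and Ccl3 with Ccl2 or Ccl7 was not among them. Ccl12 had r of -0.53 with Ccl2 and -0.50 with Ccr1, and Ccl8 0.25 and 0.14, none of which passed.

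At 10 mpk 1 of 36 pairs passed, Ccl2 with Ccl7 (r = 0.91, rho = 0.89, permutation p = 0.00115 and 0.0011), and none without the 2 farthest mice. Ccl12 and Ccl8 had r = 0.80 there (permutation p = 0.00547, adjusted p = 0.0985). The difference in r between vehicle and 10 mpk mice was not tested.

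**Figure D4:**
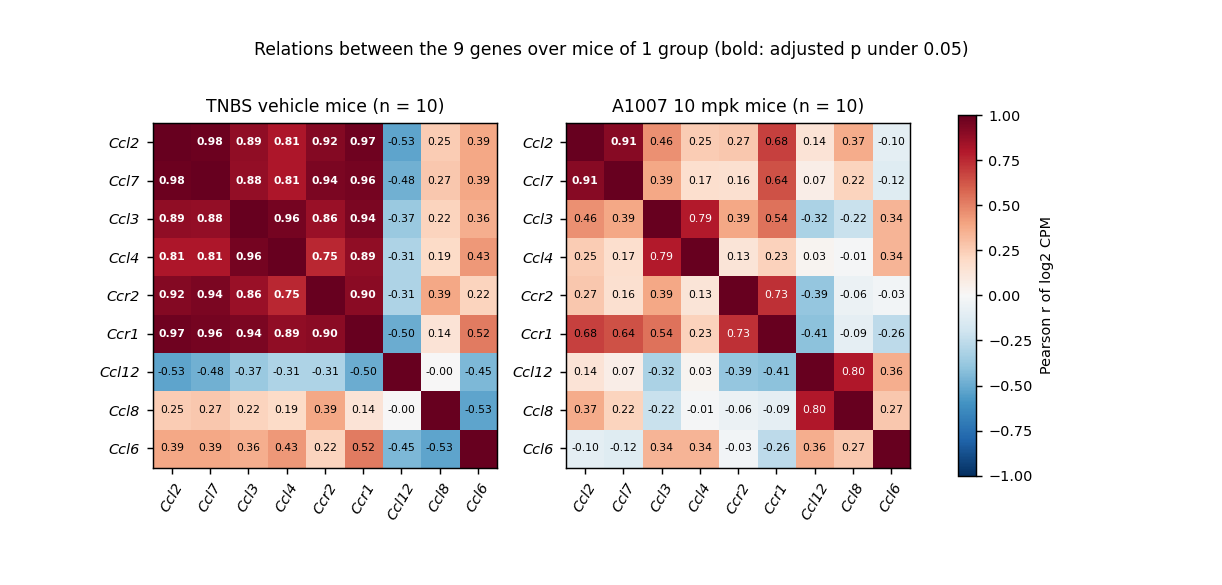
Pearson's r of log2 CPM for each pair of the 9 genes over 10 TNBS vehicle mice (left) and 10 mice at 10 mpk (right), with the colour scale from -1 to 1 and bold for an adjusted p under 0.05. In vehicle mice 15 bold pairs form 1 block of 6 genes, and at 10 mpk Ccl2 with Ccl7 is the only bold pair.

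The genes most like Ccl2 were sought by the lower of 2 Spearman coefficients of log2 CPM, over 10 vehicle mice and over 10 mice at 10 mpk, among 13566 genes with the 9 members left out. They were Cyp7b1, an oxysterol hydroxylase (0.94 and 0.96), Clec4e, a lectin receptor of activated macrophages (0.94 and 0.94), Trem1, an activating receptor of neutrophils and monocytes (0.95 and 0.93), Timp1, an inhibitor of matrix proteases (0.93 and 0.94), and Mmp8, a collagenase stored in neutrophils (0.99 and 0.89). The genes most like Ccr2 were Mcemp1 (0.92 and 0.82), Cd300lf (0.87 and 0.82), Fgr, a Src family kinase of myeloid cells (0.93 and 0.81), Clec4a3 (0.87 and 0.81) and Havcr2 (0.84 and 0.81). These are the top of a ranking of many genes over few mice and carry no test.

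The rest of the CC system was read from lists chosen by function. Their counts stand against 18.2% of all genes higher and 13.5% lower in vehicle than in sham mice. Against vehicle the shares of all genes were 2.83% higher and 2.91% lower at 10 mpk, 13.5% higher and 17.9% lower at 30 mpk, and 7.12% higher and 11.1% lower at 90 mpk. Of 13 other CC ligands 12 were tested, and 4 rose and 1 fell in vehicle against sham mice, with a median log2 fold change of 0.25 where all genes had 0.02. Ccl24, an attractant of eosinophils, rose by 3.23 (adjusted p = 0.000119) and Ccl9, a further CCR1 ligand, by 1.86 (adjusted p = 0.000976), while Ccl28, an epithelial ligand, fell by 0.55 (adjusted p = 0.00629). At 30 mpk 3 of the 12 fell and 2 rose, close to the shares of all genes, and at 90 mpk 3 fell and none rose (medians 0.36 and 0.06). Their log2 fold changes at 30 and 90 mpk were -1.32 and -1.5 for Ccl9, -1.48 and -1.96 for Ccl24, and -1.07 and -0.91 for Ccl11, also an attractant of eosinophils (edgeR adjusted p of 0.000752 to 0.0394). At 10 mpk Ccl9 alone fell, with a value of -1.02 (adjusted p = 0.0421, list median 0.11).

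Among the other receptors Ccr3, the eotaxin receptor of eosinophils, rose with TNBS by 1.61 (edgeR adjusted p = 0.00277). Ccrl2, a non-signalling receptor that presents chemerin, rose by 2.12 (adjusted p = 0.00366) and fell at 30 and 90 mpk, with values of -1.67 and -1.80 (adjusted p = 0.00371 and 0.00324). Ackr2, a scavenger of inflammatory CC ligands, fell at 30 mpk, with a value of -0.73 (adjusted p = 0.00953).

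Among 14 tested genes of monocyte entry and macrophage growth, 12 rose with TNBS (median 0.94). Itgam, a chain of the integrin Mac-1, rose by 3.37 (adjusted p = 8.49e-05) and Selp, the P-selectin of vessels and platelets, by 3.21 (adjusted p = 5.85e-05). Against vehicle 2 fell at 10 mpk, 9 at 30 mpk with 1 rise, and 6 at 90 mpk (medians -0.29, -0.65 and -0.46). At 30 and 90 mpk the values were -2.62 and -2.61 for Selp and -2.88 and -2.86 for Itgam (adjusted p of 1.56e-05 to 0.000288).

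Of 15 tested inducers and brakes of chemokine transcripts, 8 rose with TNBS (median 0.45), led by the cytokines Il6 (8.37, adjusted p = 0.000198), Il1a (5.70, adjusted p = 0.000302) and Il1b (5.59, adjusted p = 0.000143). In sham mice Il6 and Il1a had means of only 0.017 and 0.14 FPKM, so the size of their rises depends on the model. Il6 passed the filter on low counts through mice of other groups, so its changes are in part set by that filter. At 30 mpk 10 fell and 1 rose, and at 90 mpk 10 fell (medians -0.51 and -0.5). At 10 mpk 1 fell (median -0.36), and Il6 had a log2 fold change of -3.95 (adjusted p = 0.00574). Zfp36, which encodes a protein that destabilizes cytokine mRNA, was the gene that rose at 30 mpk, by 1.53 (adjusted p = 0.000147), from 32.66 ± 15.1 to 92.85 ± 42.2 FPKM (SD, n = 10).

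Most tested markers of monocytes and macrophages, neutrophils and fibroblasts rose with TNBS and were lower than in vehicle mice at 30 and 90 mpk. The members Ccl2, Ccl7, Ccl3, Ccl4, Ccr2 and Ccr1 did the same, whereas Ccl12, Ccl8 and Ccl6 were called lower at no dose. The summed CPM of 15 monocyte and macrophage markers ran from 615 to 811 in sham mice, 854 to 2130 in vehicle mice, 901 to 1560 at 10 mpk, 840 to 1270 at 30 mpk and 781 to 1390 at 90 mpk. In vehicle mice 12 of the 15 rose and 1 fell, and 4, 9 and 11 of the 15 fell against vehicle at 10, 30 and 90 mpk (medians -0.28, -0.58 and -0.65). The most abundant were Lyz2 (345.6 ± 113 FPKM in vehicle mice) and Plac8 (245.3 ± 113), of which Lyz2 fell at 30 and 90 mpk, with values of -0.42 and -0.49 (adjusted p = 0.0416 and 0.028), while Plac8 was called in neither.

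The sum of 8 neutrophil markers ran from 22.7 to 55.9 CPM in sham mice, 34.8 to 4830 in vehicle mice, 15.3 to 697 at 10 mpk, 42.6 to 81.1 at 30 mpk and 30.8 to 71.4 at 90 mpk. Of 7 tested all rose with TNBS, and 3, 6 and 7 fell at the 3 doses, S100a9, the most abundant, from 748.5 ± 1260 FPKM in vehicle mice to 4.107 ± 5.55 at 90 mpk. Vehicle replicates 9 and 5, the highest mice in both Ccl2 and Ccl3, had neutrophil sums of 4830 and 2640 CPM. Replicate 2, the third in Ccl2, had 541, replicate 8, the third in Ccl3, had 681, and replicate 1, lowest in Ccl2, had 34.8. The part of monocyte, macrophage and neutrophil number in the members' changes was not tested.

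Fibroblast markers, 6 in number, all rose with TNBS, and 1, 5 and 5 fell at the 3 doses, with sums of 622 to 1040 CPM in sham mice, 2060 to 5370 in vehicle mice, 2110 to 5560 at 10 mpk, 1120 to 2220 at 30 mpk and 1040 to 2100 at 90 mpk. Eosinophil, mast cell and basophil markers rose in 4 of 5 tested and fell in 1 with TNBS, and none was called against vehicle at any dose in edgeR. Their sums were 4.37 to 7.52 CPM in sham mice, 6.93 to 85.1 in vehicle mice, 4.31 to 141 at 10 mpk, 12 to 29.1 at 30 mpk and 11.3 to 25.5 at 90 mpk. Of 10 lymphocyte markers 1 rose with TNBS and 0, 2 and 0 rose at the 3 doses, and of 6 dendritic cell markers 1 rose with TNBS and 1, 0 and 2 at the doses. Endothelial markers rose in 3 of 5 with TNBS, and 1 fell at 30 mpk. The part of these cells was not tested, and no marker of any list was at 0 in all mice of a group. The 7 colon epithelium markers, from 11900 to 28100 CPM in sum over the 50 mice, showed the labelled tissue, and 1 of them was lower in vehicle than in sham mice. Against sham 1 was lower at 10 mpk, 5 were lower and 1 higher at 30 mpk, and 5 were lower at 90 mpk, where 14.7, 28.7 and 21.9% of all genes were lower. Against vehicle 2 were higher at 30 mpk and none was called at 10 or 90 mpk.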

How the data were processed

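Poly(A) RNA of 50 mouse colons was measured in 5 groups of 10. The authors deposited 1 table with raw read counts and FPKM per gene and mouse, with exon lengths, symbols and GRCm39 coordinates. The submitters' processing notes name GRCm39 and the tools HISAT2 2.2.1, cutadapt 1.9.1, HTSeq 0.6.1 and DESeq2. The strand setting is not given in the sources used here, nor is the handling of multi-mapped reads. The authors' FPKM were recomputed from counts, exon lengths and totals, and 99.997% of those based on 500 counts or more differed by under 1%.

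Tests across genes were run in R 4.3.3, and relations between members with permutation tests in Python. Genes were kept by filterByExpr over all 50 mice (count minimum 10), leaving 17928, and tested with edgeR 4.0.16 (glmQLFit and glmQLFTest, robust, TMM), adjusted by Benjamini-Hochberg over all of them and called under 0.05. Comparisons with sham used the mice of the pair of groups, and the others all 40 TNBS mice. Every adjusted p is from this test unless another tool is named. Spreads are between mice; the labels do not say whether mice shared a cage or litter. Alternatives used DESeq2 1.42.0, limma 3.58.1 (log2 FPKM with pseudocounts of 0.5 and 0.1, quantile normalization, voom), RLE scaling, no filter, a rank-sum test, a replicate block, other sets of mice and each mouse left out. The edgeR script was tested on simulated data.

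The members, the lists and the markers were chosen with earlier results of these data known. All members are named; from each functional list up to 3 called genes with the smallest p per comparison were eligible, and from marker lists the 2 most abundant. Positions of the genes are from the deposited table and promoters from RefSeq (GRCm38.p6). Smooth muscle markers were called in none of 4 with TNBS and 1 of 4 at 90 mpk against vehicle (higher). Against sham 3 of 4 were higher at each dose. Small intestine markers were called in 1 of 2 tested at 30 mpk, against vehicle and against sham (lower). Pancreatic acinar markers were called in 5 of 5 with TNBS and at each dose against sham (higher), and in 4 of 5 at 90 mpk against vehicle (lower). Their summed CPM ran from 0 to 35400 in vehicle mice with a median of 1.61, so the high values lay in some libraries only. These counts stand against the shares of all genes given above. A gene of the list of other receptors and the counts over that list are not reported here.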

Additional observations from a re-analysis of the deposited data

Results flagged for a closer look

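For each member and group, the gap between the most extreme mouse and its nearest neighbour was divided by the range of the group, on log2(FPKM + 0.5), and set against Dixon's critical value of 0.466 for 10 mice. Of 45 sets 7 exceeded it, where chance gives about 1 in 20, and sets of different genes share mice. Sham replicate 5 was high in Ccl2 (3.14 FPKM, next 1.22) and in Ccl8 (6.2, next 2.94). Sham replicate 4 was low in Ccl12 (0.67 FPKM, next 1.86). At 10 mpk replicate 3 was low in Ccl2 (0.95 FPKM, next 2.87), and replicate 8 was high in Ccl3 (22.37 FPKM, next 3.3) and Ccl4 (7.77 FPKM, next 1.5). Those replicates, 3 and 8, are the mice with little Hoxd13. At 90 mpk replicate 7 was low in Ccr2 (1.38 FPKM, next 2.33). In the vehicle group no member exceeded it. The rule cannot flag 2 mice that are high together, as in vehicle mice for Ccl2 (64.34 and 58.06 FPKM) and Ccl7 (82.89 and 77.81 FPKM).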

How the results depend on the processing

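In vehicle against sham mice 8 members were called under every alternative, and against vehicle the counts at 30 and 90 mpk were 5 to 7 under all of them. At 10 mpk against vehicle the count of 5 became 2 with quantile normalization, 2 with log2 FPKM at either pseudocount, and 0 with group weights, with the 2 groups alone and with the rank-sum test. Against sham, all 50 mice in 1 fit gave 5 at 30 mpk and 3 at 90 mpk. Between doses DESeq2 called 1 for 30 against 10 mpk and quantile normalization 1 for 90 against 10 mpk. Leaving out each mouse in turn gave 5 to 9 at 90 mpk against sham, 4 to 6 at 10 mpk against vehicle and 0 to 1 for 30 against 10 mpk. Calls over all genes ran from 7511 to 8376, from 494 to 2436 and from 159 to 1405 in these fits. Without the 2 mice farthest from the median of the first gene of each pair, 8 pairs were related in vehicle mice and 0 at 10 mpk. The cause of these changes was not tested. Quantile normalization moved the share of higher calls among all genes from 57.5 to 41.4% in vehicle against sham, from 59.1 to 43.8% in 10 mpk against sham, from 49.3 to 65.4% at 10 mpk, 43 to 56.7% at 30 mpk and 39.1 to 56.4% at 90 mpk against vehicle, and from 23.3 to 44.2% and 33.3 to 45.5% for 30 and 90 against 10 mpk.

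Reversals concerned log2 values that were not called. Ccl6 in vehicle against sham was -0.04 with quantile normalization, -0.01 with log2 FPKM at either pseudocount, 0.00 with no filter, group weights, the replicate block and the rank-sum test, and -0.05 to 0.05 with 1 mouse left out. At 10 mpk it was -0.03 against sham with quantile normalization, and -0.05 to 0.07 against sham and -0.04 to 0.07 against vehicle with 1 mouse left out. Ccl12 at 10 mpk against vehicle was 0.09 without 10 mpk replicates 3 and 8 and -0.26 to 0.03 with 1 mouse left out. Ccl12 for 90 against 10 mpk was 0.03 with quantile normalization and log2(FPKM + 0.5), 0.06 with log2(FPKM + 0.1), 0.09 with group weights, 0.02 with the rank-sum test and -0.23 to 0.06 with 1 mouse left out. Ccl8 for 30 against 10 mpk was 0.22 with quantile normalization and the rank-sum test, 0.17 and 0.18 with log2 FPKM, 0.23 with group weights, 0.28 without the 2 mice low in Xist and -0.59 to 0.18 with 1 mouse left out. For 90 against 30 mpk Ccr1 was -0.04 with the replicate block, and with 1 mouse left out Ccr1 was -0.04 to 0.10, Ccr2 -0.04 to 0.17, Ccl3 -0.50 to 0.06 and Ccl6 -0.01 to 0.07.

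The replicate numbers of the labels gave no sign of pairing the mice in the median. Same-numbered mice of different groups had a median correlation of -0.014 in their deviations, and differently numbered mice -0.006. Of 100 same-numbered pairs 30 exceeded 0.1, with a highest value of 0.491, and the share of other pairs above 0.1 was not counted. With the replicate block the counts were 8 for vehicle, 7 at 10 mpk, 8 at 30 mpk and 6 at 90 mpk against sham, 4, 7 and 7 at the 3 doses against vehicle, and 0 between doses. No share of all genes is given here for the block. The calls it did not make were Ccl2 and Ccl12 at 90 mpk against sham (1.16 and 0.62, adjusted p = 0.0854 and 0.0737) and Ccl3 at 10 mpk against vehicle (-2.02, adjusted p = 0.151). Ccl3, Ccl4 and sham values under 1 FPKM rest on few counts, so their size is limited by depth.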
